A study of Homo sapiens with 12 samples.

Results

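Exon clusters of noncoding transcripts are read clusters of the QKI libraries that the authors' annotation places on exons of long noncoding RNAs, pseudogene transcripts and related RNAs. The set also holds noncoding exons listed under names of coding genes. Of its 3836 gene names, 1112 matched RefSeq, 506 of them as long noncoding RNA and 270 as protein-coding. They were chosen by annotation, as clusters off the mitochondrial chromosome whose most frequent region class was the exon of a noncoding transcript, and clusters carrying a name of a small nuclear, small nucleolar, 7SK, RMRP, RPPH1 or transfer RNA were left out. This gave 10593 of 384347 clusters (2.76%) in endogenous library 1 and 6323 of 231844 (2.73%) in endogenous library 2, together 16916 of 616191. Merging clusters of both libraries that overlapped or adjoined on the same strand gave 12662 exon loci beside 464202 other loci. The rule used no fold value, but a cluster had to be called in an endogenous library to enter.

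The values came from enhanced crosslinking and immunoprecipitation (eCLIP), which pulls down a UV-crosslinked protein and sequences its RNA, with a size-matched input library for comparison. The wild type group carried myc-QKI-5, a nuclear isoform of Quaking with an added tag, and was pulled down with anti-MYC antibody. The mutant group carried the same tagged protein with the substitutions K120A and R124A, which lie in its RNA-binding region, and the endogenous group was unmodified cells pulled down with anti-QKI antibody. Each of the 3 groups had 2 immunoprecipitation libraries. Both tagged groups were transfected with 10 µg of plasmid and cultured for 72 h, so antibody and transfection differ together between tagged and endogenous libraries. All groups share the HEK293xT or HEK293T line, which still has its own QKI, and UV light of 254 nm at 400 mJ/cm2. The design note of the series speaks of stem cells becoming cardiomyocytes, and the sample labels were followed instead. Separate cultures for the libraries of a group are not stated in the labels, so the spread between them, and any p-value resting on it, may be technical.

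QKI is a KH-domain protein that binds RNA at ACUAA elements and is known for directing splicing of introns, so most of its contacts lie in pre-mRNA. Long noncoding RNAs are transcripts without a protein product. Many but not all are spliced, and many stay in the nucleus, where QKI-5 also resides. Some noncoding exons in the annotation also lie inside an intron of another transcript on the same strand, so a read there can come from either RNA.

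Exon clusters of noncoding transcripts were enriched with endogenous QKI about as often as clusters elsewhere, more often than in coding sequence and less often than in introns next to splice sites. A cluster was called enriched when the authors' log2 fold over input and the authors' −log10 p were both at least 3. In endogenous library 1, 479 exon clusters were enriched (4.52%, 95% binomial interval 4.13 to 4.93), against 4.22% of all clusters. In endogenous library 2, 381 were enriched (6.03%, 5.45 to 6.64), against 5.39% of all clusters. The shares were 0.901% and 0.917% in coding sequence, 3.34% and 3.92% in 3′ untranslated regions, and 6.21% and 7.35% in introns close to splice sites. Binomial intervals cover counting error only, and clusters of one library are not replicates.

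**Figure D1:**
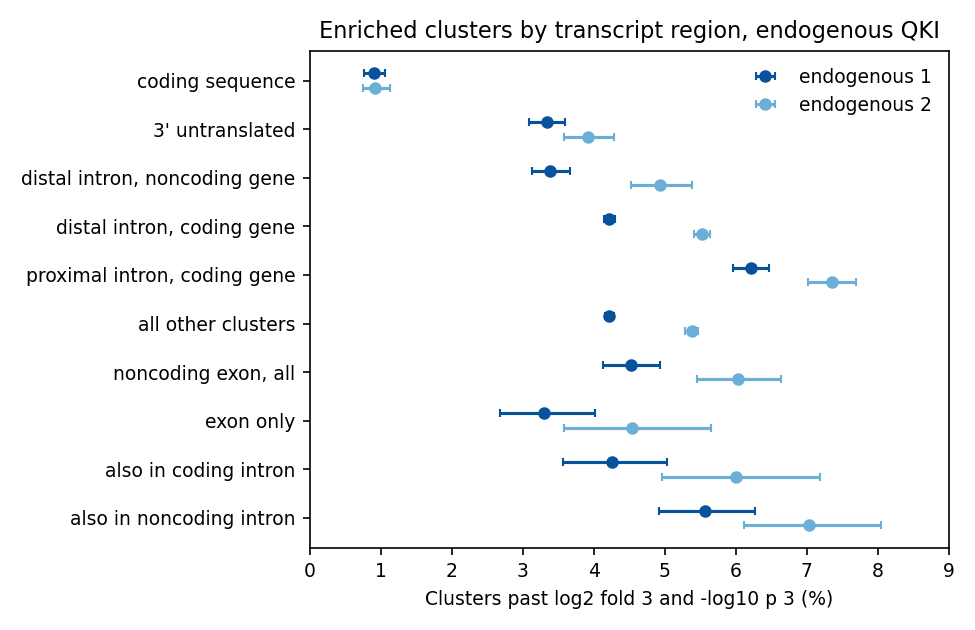
Share of endogenous clusters called enriched (x axis, percent) by transcript region (y axis). Points are the 2 endogenous libraries and bars are 95% exact binomial intervals; noncoding exon clusters sit at 4.52% and 6.03%, near all other clusters (4.21% and 5.38%), and coding sequence is lowest.

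The share differed with the setting of the exon. Exon clusters that also lay in an intron of another noncoding transcript were enriched in 5.56% and 7.03% of cases. Those that also lay in an intron of a coding gene were enriched in 4.25% and 6.0%, and those with no intron annotation on their strand in 3.30% and 4.53%. The order was the same in both libraries, while the intervals of the coding-intron class overlapped both neighbours. A smaller share of exon clusters than of other clusters lay above input at all, 52.9% against 59.8% in library 1 and 79.6% against 85.8% in library 2, although the median log2 fold was the same in both sets (0.26 in library 1 and 1.15 in library 2).

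The authors' reproducible list for endogenous QKI, 1 list for the pair of libraries, marks the firmest sites. Of its 12409 peaks, 376 (3.03%) lay on exon loci, and they covered 265 loci (2.09%, against 2.05% of all annotated loci) at 181 named genes. Among the 2834 exon loci seen in both endogenous libraries, 9.28% lay on such a peak, against 9.57% of all loci seen in both. Of the 181 genes, 139 had 1 such locus and 24 had 2. Only 55 of the 265 loci had no intron annotation on their strand, 72 also lay in a coding intron and 138 in an intron of another noncoding transcript. Names of coding genes, such as SFPQ and LMBR1, occur among the 55.

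The exon locus with the highest mean fold was in MIAT, a nuclear long noncoding RNA also called Gomafu and known for repeats of a UACUAAC element. It lies at chr22:27069025-27069836 on the plus strand (hg19, as all coordinates here) and had log2 folds of 8.87 and 7.65 in the endogenous libraries. This exon locus is also annotated to an intron of a noncoding transcript. The wild type libraries gave 7.60 and 6.83 there, while mutant library 1 gave 0.41 and mutant library 2 listed no cluster. Every wild type and endogenous value at this locus therefore stood far above the mutant. A further MIAT locus on the reproducible list, chr22:27067365-27067482, had 5.10 and 4.89 in the endogenous libraries and no cluster in any tagged library. The myc lists hold only clusters above input, so a missing cluster there is either absent or not above input.

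The next loci showed the same split between wild type and mutant. TMEM161B-AS1, an antisense transcript, had log2 folds of 7.48 and 7.64 in endogenous, 7.12 and 6.13 in wild type, and 1.19 in mutant library 1 alone at chr5:87571205-87571352. The catalogue transcript lnc-CRISPLD2-2, at chr16:84789439-84789651 inside an intron of USP10, had 6.66 and 6.80 in endogenous, 6.93 and 6.08 in wild type and 1.93 in mutant library 1 alone. Wild type and endogenous values overlapped there. The locus in lnc-USP6-2 at chr17:5144501-5144784 was the exception in the mutant. It had 7.17 and 7.26 in endogenous, 6.53 and 5.47 in wild type, 1.19 in mutant library 1 and 4.19 in mutant library 2, where it was enriched.

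Both wild type values lay below both endogenous values at MIAT, TMEM161B-AS1 and lnc-USP6-2, and also at the leading loci that follow. RP6-24A23.7, in an intron of the coding gene RP6-24A23.6 at chrX:107966467-107967267, had 6.57 and 6.05 in endogenous, 2.92 and 2.80 in wild type, and 0.94 and 0.63 in the mutant. The leading locus of lnc-TFB2M-7, in an intron of the coding gene SMYD3 at chr1:246235054-246235335, had 6.06 and 6.40 in endogenous, 3.22 and 2.86 in wild type and no mutant cluster. In an intron of C12orf73, lnc-GLT8D2-2 had 5.22 and 7.15 in endogenous and 4.44 and 4.19 in wild type. In an intron of ZSCAN30, RP11-158H5.7 had 5.33 and 6.94 in endogenous, and 2.91 and 4.61 in wild type. Neither had a mutant cluster.

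**Figure D2:**
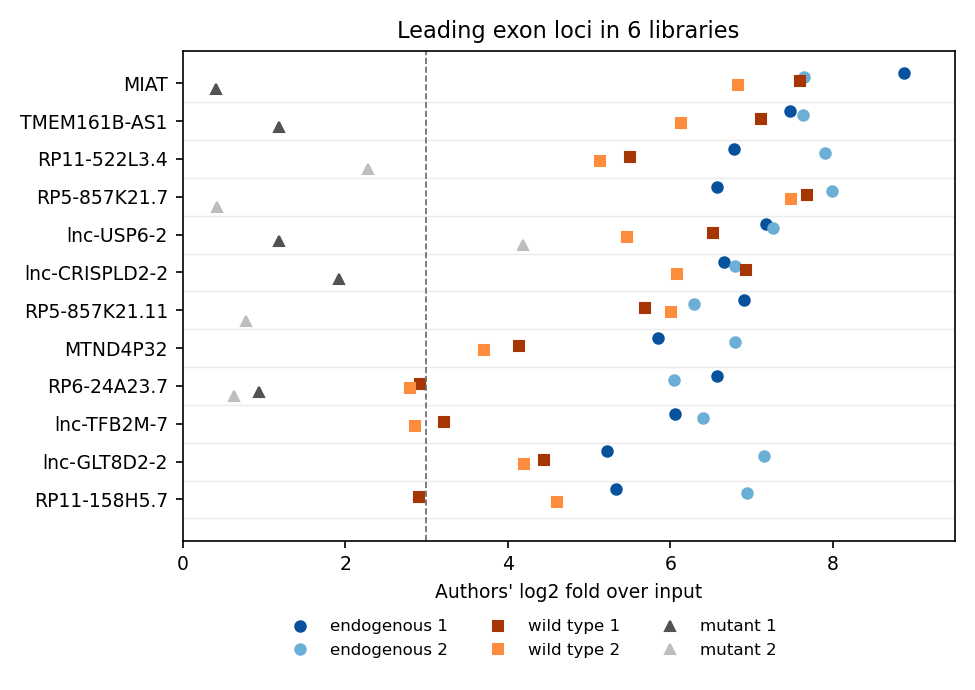
Authors' log2 fold over input (x axis) at the 12 exon loci with the highest mean endogenous fold, 1 per gene (y axis). Each point is 1 library, a missing point means no listed cluster, and the dashed line is the threshold of 3; the only mutant point past it is lnc-USP6-2 in mutant library 2 at 4.19.

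Across all 265 loci the wild type protein was found at most sites and the mutant at few. Wild type libraries listed a cluster above input at 236 and 228 loci (89.1% and 86.0%), mutant libraries at 45 and 59 (17.0% and 22.3%). At other loci on endogenous reproducible peaks the shares were 87.7% and 84.9% in wild type and 12.4% and 12.3% in the mutant. Median log2 folds of listed clusters at those other loci were 2.50 and 2.44 in wild type and 0.83 and 0.84 in the mutant. At the 265 exon loci the medians were 3.99 and 4.15 in endogenous, 2.52 and 2.42 in wild type, and 0.71 and 0.55 in the mutant. The endogenous values chose these loci, so their height is a description. Enriched clusters were present at 77 loci in each wild type library (29.1% each, against 26.5% and 24.1% of all annotated loci on endogenous reproducible peaks). In the mutant, 0 and 1 loci were enriched (0.377% in library 2), against 0.123% and 0.153% of all such loci. The exact binomial interval for 0 of 265 reaches 1.38%. The mean share enriched was 29.1% ± 0.0 (SD, n = 2) in wild type and 0.189% ± 0.267 (SD, n = 2) in the mutant, and both wild type libraries exceeded both mutant libraries. The exact two-sided permutation test gave p = 0.333, the smallest that 2 against 2 libraries allow.

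**Figure D3:**
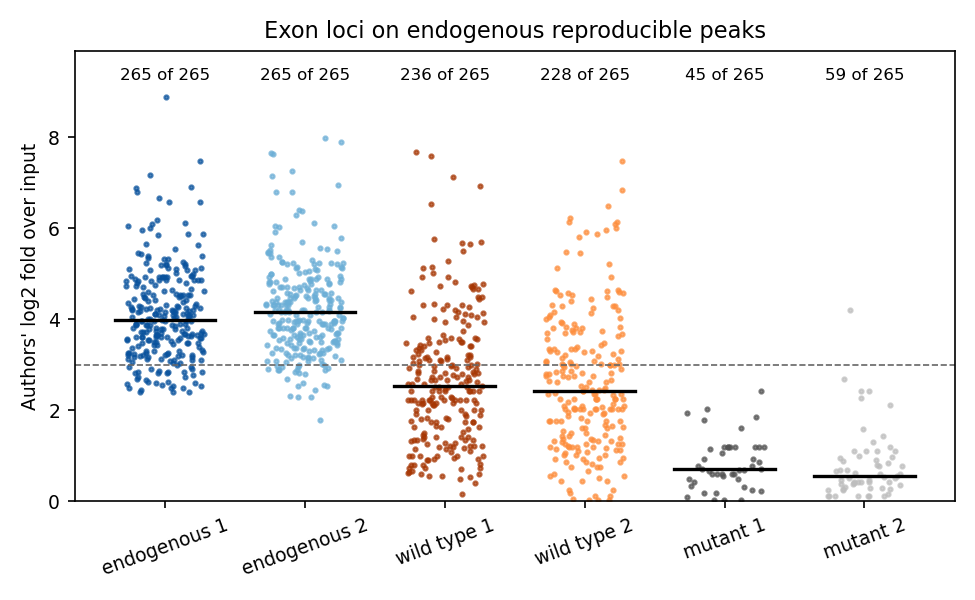
Authors' log2 fold over input (y axis) at the 265 exon loci on endogenous reproducible peaks, by library (x axis). Each point is 1 locus with a listed cluster, black lines are medians, the numbers above give loci with a cluster, and the dashed line is the threshold of 3; mutant medians lie at 0.71 and 0.55 and wild type medians at 2.52 and 2.42.

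The wild type reproducible list covered fewer exon loci, 89 of 12662 (0.703%, against 0.678% of all annotated loci). Of these, 71 were also on the endogenous list, which is 79.8% of the wild type loci and 26.8% of the 265 endogenous ones. Over all annotated loci, 67.2% of those on a wild type peak were on an endogenous peak, and 22.2% of those on an endogenous peak were on a wild type peak. Of the remaining 18 wild type loci, 13 had a cluster in both endogenous libraries and 6 were enriched in either. Median log2 folds of their listed clusters were 3.16 and 2.78 in endogenous and 3.70 and 3.86 in wild type. They ranged widely, and 2 named after their values were seen show it: LMO7-AS1 had 3.21 and 3.15 in endogenous and 3.94 and 4.35 in wild type, whereas AC007038.7 had 0.58 and 1.89 in endogenous and 5.11 and 2.58 in wild type. None of the 55 peaks on the mutant reproducible list lay on an exon locus, which allows a share of up to 6.49% of the list. Over all annotated loci 0.00524% lay on a mutant peak, and 0.102% of those on an endogenous peak did.

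Counting all 12662 exon loci gave the same order of groups. Enriched loci numbered 344 and 287 in the endogenous libraries (2.60% and 2.16% of all annotated loci were enriched there), 116 and 120 in wild type (0.876% and 0.925%), and 3 and 20 in the mutant (0.00860% and 0.0489%). Mean shares were 2.49% ± 0.32, 0.932% ± 0.022 and 0.0908% ± 0.0949 (SD, n = 2 each). The loci were built on endogenous clusters, which raises the endogenous share. The exact two-sided permutation p was 0.333 for wild type against mutant and for wild type against endogenous.

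The mutant listed weak clusters on noncoding exons more often than elsewhere. A cluster above input was listed at 14.8% and 18.5% of exon loci in the mutant libraries, against 9.43% and 10.9% of other loci, so both libraries were higher on exons. The wild type libraries listed 20.2% ± 0.4 of exon loci and 18.9% ± 0.8 of other loci (SD, n = 2). These are shares within the same libraries and no test across libraries was made of the difference. Most of the mutant clusters were weak, with median log2 folds of 0.61 and 0.98, beside 0.68 and 0.89 at other loci. Weakness was not particular to the mutant, since wild type medians over all exon loci were 1.00 and 1.02. Among the nuclear long noncoding RNAs, whose 180 loci in both endogenous libraries are described next, the mutant listed 72 and 55 and wild type 85 and 83.

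No locus was enriched in both mutant libraries. Of the 23 loci enriched in either, 14 had an endogenous fold at or below input in each library that listed them, and 1 (lnc-USP6-2) was also enriched in wild type and endogenous. Of the 20 loci of mutant library 2, 14 had a −log10 p under 5. All 3 loci of mutant library 1 were named after their values were seen. SNHG16, host of small nucleolar RNAs, had mutant folds of 3.11 and 2.38 at chr17:74557718-74557785. Wild type gave 0.92 and 0.46 at that locus and endogenous −0.95 and −2.12, so the mutant stood above both other groups. THAP9-AS1 had 3.13 and 0.90 in the mutant, 0.95 in wild type library 1 alone, and −1.45 and −1.68 in endogenous. MTND6P4 had 3.04 in mutant library 1, no cluster in mutant library 2, and 0.48 and 0.23 in endogenous.

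Nuclear long noncoding RNAs, a list of well-studied transcripts chosen by name, had 180 loci in both endogenous libraries. Of these, 22 (12.2%) were on the endogenous reproducible list, beside 9.28% of all exon loci. Where these RNAs lie in the cell was not measured here, and the lists overlap, as DANCR is also a small nucleolar RNA host gene. Median log2 folds over the 180 loci were 0.96 and 0.92, near those of all exon loci (1.06 and 1.37). Of the 22, 16 lay in FTX and JPX, noncoding transcripts of the X-inactivation centre, and in NEAT1, the scaffold RNA of paraspeckles. Their wild type folds were low. Only 2 of the 22 were on the wild type reproducible list (9.09%, beside 26.8% of all 265 loci), 1 in MIAT and 1 in OIP5-AS1.

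FTX had 7 loci on the endogenous list and none on the wild type list. The highest, at chrX:73491787-73492204, had log2 folds of 5.44 and 4.88 in endogenous, 2.13 and 1.31 in wild type, and 0.71 and 0.35 in the mutant. Over its 7 loci the endogenous folds ran from 2.53 to 5.44. The locus at chrX:73450949-73451179 was the only one of the 7 with a wild type value past 3, with 3.87 in library 1 but 1.31 in library 2. The locus at chrX:73461084-73461362 had 3.89 and 3.99 in endogenous and no tagged cluster.

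JPX had 5 loci, with endogenous folds between 2.83 and 4.58. Its highest, at chrX:73194615-73195209, had 4.26 and 4.58 in endogenous, 3.01 and 2.18 in wild type, and 2.02 and 0.16 in the mutant. NEAT1 had 4 loci, all without intron annotation on their strand. The one at chr11:65195932-65196293 had 4.93 and 4.19 in endogenous, both with −log10 p at the files' upper limit of 400, beside 1.5 and 1.45 in wild type and 0.87 and 0.94 in the mutant. At all 4 NEAT1 loci both endogenous values exceeded both wild type values, by least at chr11:65193795-65194013, where 3.11 in endogenous library 1 stood against 2.52 in wild type library 2. MAGI2-AS3, an antisense transcript, had 6 loci with endogenous folds from 3.41 to 4.77, of which 1 reached 4.30 in wild type library 2 while giving 2.22 in library 1.

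KCNQ1OT1, an imprinted antisense transcript, had a locus at chr11:2691534-2691676 with 3.87 and 5.24 in endogenous, 1.25 in wild type library 2 alone, and 1.78 and 2.69 in the mutant. The authors' −log10 p there was only 0.48 in wild type library 2 and 0.89 and 1.21 in the mutant. These tagged clusters therefore cannot be told from input or ranked. OIP5-AS1 had 4.61 and 3.81 in endogenous, 3.17 and 4.53 in wild type, and no mutant cluster. At OIP5-AS1 the wild type and endogenous values overlapped.

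**Figure D4:**
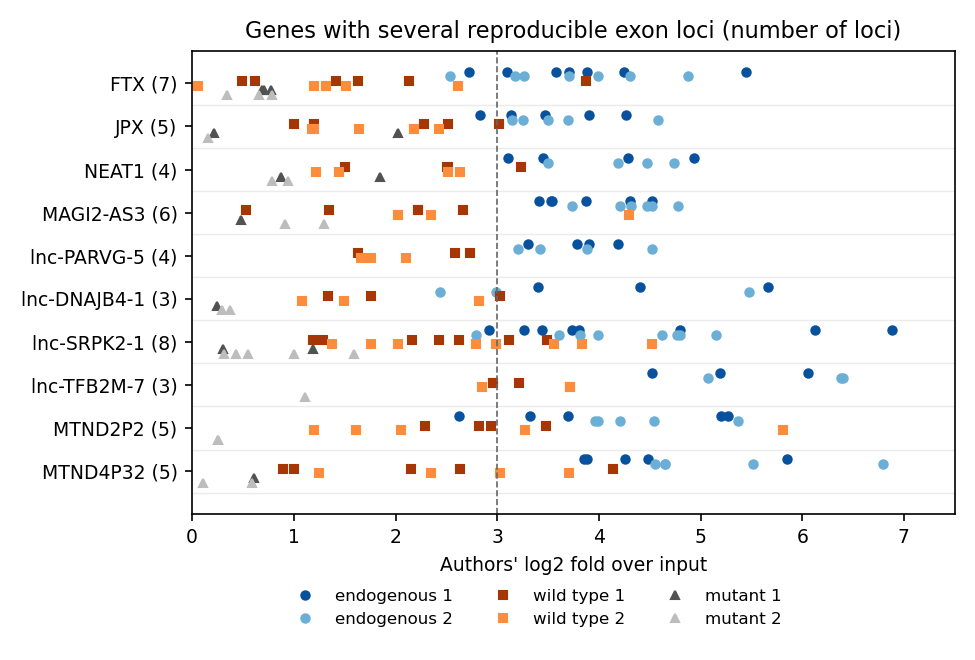
Authors' log2 fold over input (x axis) at every exon locus on an endogenous reproducible peak in the 10 genes with most such loci (y axis, number of loci in brackets). Each point is 1 locus in 1 library and the dashed line is the threshold of 3; wild type points of FTX run from 0.06 to 3.87 and endogenous points from 2.53 to 5.44.

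The catalogue transcript lnc-SRPK2-1 had most loci on the endogenous list, 8, of which 3 were also on the wild type list. Its leading locus at chr7:104636015-104636222 had 6.89 and 4.62 in endogenous, 3.11 and 4.53 in wild type, and 0.55 in mutant library 2 alone. All 3 loci of lnc-TFB2M-7 were on both lists. None of the 4 loci of lnc-PARVG-5, in an intron of PARVB, and none of the 3 of lnc-DNAJB4-1, in an intron of DNAJB4, was on the wild type list. For exons inside coding introns, bound pre-mRNA of the host gene and the noncoding transcript cannot be told apart. The same limit holds for exons that also lie in a noncoding intron, among them the leading MIAT, TMEM161B-AS1, lnc-USP6-2 and MIR222HG loci. Every FTX, JPX and lnc-SRPK2-1 locus on the endogenous list, and most of those in MAGI2-AS3, also lay in such an intron.

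Host genes of small RNAs differed among themselves. Small nucleolar RNA host genes, whose introns carry small nucleolar RNAs, had 54 loci in both endogenous libraries with median log2 folds of −1.65 and −2.00, and 1 (1.85%) was on the endogenous list. Their exons were thus mostly below input, unlike exon loci as a whole. The highest by mean fold was in DANCR, with 3.54 and 2.73 in endogenous, 2.73 and 4.35 in wild type and no mutant cluster, though this locus was not on the reproducible list. The 1 listed locus was another in DANCR, with 2.95 and 1.79 in endogenous. SNHG3, SNHG5, SNHG4, SNHG22 and SNHG16 had mean endogenous folds below it, the nearest being SNHG3 at 2.63 and 2.08.

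MicroRNA host genes had 45 loci in both libraries, 5 (11.1%) on the endogenous list. MIR222HG at chrX:45621738-45622246 had 4.87 and 5.24 in endogenous, 2.41 and 3.18 in wild type, and 1.19 and 1.18 in the mutant, with no overlap between the groups. DLEU2, the host of a microRNA cluster deleted in leukaemia, had 5.17 and 4.52 in endogenous, 3.41 and 2.82 in wild type and 0.28 in mutant library 2 alone. MIR924HG had 5.43 and 4.12 in endogenous, 2.84 and 1.93 in wild type and no mutant cluster. None of the 5 loci was on the wild type list.

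Antisense genes were the largest class with gene symbols, with 498 loci in both libraries, 51 (10.2%) of them on the endogenous list at 31 genes and 10 also on the wild type list. TMPO-AS1 had 4.18 and 5.37 in endogenous, 4.33 and 4.17 in wild type, and 0.93 in mutant library 1 alone. NIPBL-AS1 had 5.00 and 4.47 in endogenous, 4.19 and 4.05 in wild type and no mutant cluster. ENTPD1-AS1, TMEM9B-AS1 and TP73-AS1 had endogenous values between 4.65 and 5.58 and wild type values between 2.86 and 3.92. No mutant cluster was listed at these 3 loci.

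Genes with LINC names had 8 loci on the endogenous list, 6.45% of their loci in both libraries. LINC01351 had 4.21 and 5.24 in endogenous and 4.5 and 4.61 in wild type, so the groups overlapped, whereas LINC01515 had 5.21 and 4.96 in endogenous against 0.79 in wild type library 1 and 1.61 in mutant library 1, with no cluster in the other tagged libraries. LINC00472 had 3 loci on the endogenous list and 1 on the wild type list. LINC01355 had 4.55 and 4.77 in endogenous and 3.43 and 4.0 in wild type. Catalogue names with the prefix lnc- had 1111 loci (9.81% on the list) and clone names had 321 (9.03%). Further small RNAs, mostly Y RNA copies, had 65 loci with medians of −1.26 and −0.76 and 2 (3.08%) on the endogenous list, RNY4P2 and RNY4P5.

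Nuclear copies of mitochondrial genes stood out among the lists. These pseudogenes are pieces of mitochondrial DNA inserted into chromosomes, and their sequence is close to that of abundant mitochondrial transcripts, so nuclear and mitochondrial origin of such reads cannot be told apart from these files. They had 39 loci in both endogenous libraries, of which 17 (43.6%) were on the reproducible list, with median log2 folds of 2.93 and 3.15. Within 20000 bases of such a copy lay 108 exon loci, and 26 of them (24.1%) were on the endogenous list, beside 239 of the other 12554 (1.90%). Of the 26, 16 lay on chromosome X between positions 102040600 and 102060726, and 4 on chromosome 1 between 565632 and 569972.

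These loci were also strong in wild type and low in the mutant. Wild type libraries were enriched at 15 and 17 of the 26, beside 62 and 60 of the other 239 (25.9% and 25.1%), and the mutant at none of the 26. RP5-857K21.7, at chr1:568231-568324, had 6.57 and 7.99 in endogenous, 7.68 and 7.48 in wild type, and 0.43 in mutant library 2 alone. MTATP6P1, at chr1:569169-569348, had 5.10 and 4.21 in endogenous and 5.66 and 5.92 in wild type, so both wild type values exceeded both endogenous ones. RP11-522L3.4 on chromosome X had 6.79 and 7.90 in endogenous, 5.50 and 5.13 in wild type, and 2.28 in mutant library 2 alone. The 5 loci of MTND4P32 had endogenous folds from 3.86 to 6.79, with 1 on the wild type list, and the 5 loci of MTND2P2 had 2 on it. Without the 108 loci, 341 endogenous and 78 wild type reproducible peaks remained on exon loci.

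To test single places, clusters were merged into regions with a cluster in all 4 libraries compared, and limma was fitted across all regions. For wild type against mutant, 193 of 5481 tested regions were exon regions, and 1 was higher in wild type (0.657% of all regions were called in that direction) and none was lower (0.0182% of all). At an unadjusted p of at most 0.05, 18 were higher and 13 lower, beside 280 and 398 of all 5481. Most exon regions leaned the other way from the call, since 67 of 193 were higher in wild type and the median difference was −0.31, beside 1966 of 5481 and −0.26 over all regions. The one call was lnc-MCM9-1, in an intron of FAM184A at chr6:119312671-119312858, with log2 folds of 4.75 and 4.59 in wild type against 0.61 and 0.43 in the mutant. The difference was 4.15 (SE 0.48, limma adjusted p = 0.00963). It was lost without mutant library 1 (limma adjusted p = 0.0789) and without mutant library 2 (limma adjusted p = 0.0935). The endogenous libraries had 5.24 and 4.58 at the overlapping exon locus. Regions with a cluster in both mutant libraries are a narrow set. Of the 265 endogenous reproducible loci, 183 had no cluster in either mutant library and could not be tested. Loci with a cluster in only 1 mutant library could not be tested either.

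In this comparison 29 regions of nuclear long noncoding RNAs were tested, 9 were higher in wild type, the median difference was −0.25 and none passed. NEAT1 at chr11:65192298-65193047, named after its values were seen, had 1.47 and 1.52 in wild type against 2.52 and 1.90 in the mutant.

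For wild type against endogenous, 920 of 32651 tested regions were exon regions. Of these, 56 were lower in wild type (5.66% of all regions were called in that direction) and 9 were higher (0.818% of all). The lower set spanned 48 genes, with differences of 2.31 to 3.83 log2 units. Of the 56, 43 lay on an endogenous reproducible peak, as did 213 of the 920 tested exon regions. Loci on that list have high endogenous folds, so the overlap is partly built in. The calls depended on single libraries. Leaving out wild type library 1, wild type library 2, endogenous library 1 or endogenous library 2 gave 13, 1, 34 and 35 calls, of which 13, 1, 27 and 26 were among the 65. With each library centred on its median, 12 regions were lower and 14 higher, beside 323 and 447 of all 32651. The median difference of all regions then moved from −0.48 to 0.12. The balance of lower against higher calls therefore rests on the authors' scale, while the median of the exon regions stayed near that of all regions, at −0.45 as deposited and 0.15 centred.

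RAB30-AS1, an antisense transcript, had 0.67 and 0.59 in wild type against 4.93 and 3.98 in endogenous, a difference of −3.83 (SE 0.67, limma adjusted p = 0.0124). For lnc-CRHR2-3 the values were 1.00 and 0.76 against 4.56 and 4.81, a difference of −3.81 (SE 0.65, limma adjusted p = 0.0113). Both held with libraries centred. FTX at chrX:73491787-73492204 fell by 3.44 log2 units in wild type relative to endogenous (SE 0.67, limma adjusted p = 0.0153). RP6-24A23.7 fell by 3.45 (SE 0.65, limma adjusted p = 0.0151) and PRKCQ-AS1 by 3.49. RP11-359K18.4 fell by 3.65 and lnc-FERMT2-4 by 3.61. At each of these 7 regions both endogenous libraries exceeded both wild type libraries, as they did at all 56 regions called lower. The 7 were chosen for large differences, so this separation only describes the calls. NEAT1 at chr11:65195932-65196293 was also lower, by the deposited scale only, since its limma adjusted p was 0.0196 there and 0.0566 with libraries centred.

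In the comparison of wild type with endogenous, 56 of 920 exon regions were lower and 9 higher, with a median difference of −0.45. Over all regions 5.66% were lower and 0.818% higher. The lists are given beside these shares, and whether any list differed from them was not tested. Among nuclear long noncoding RNAs, 3 of 65 regions were lower in wild type and none was higher, with a median difference of −0.74. Antisense genes had 11 of 152 lower and 1 higher (median −0.45), and microRNA hosts 2 of 12 lower (median −1.51). Nuclear copies of mitochondrial genes had 2 of 23 lower and none higher (median −0.10), both in MTND4P32.

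Of the 9 regions higher in wild type, 8 had both endogenous values below input. The wild type lists hold only folds above 0, so at these 8 the direction of the difference was fixed by how the lists were made and supports no gain in wild type. LIMD1-AS1, an antisense transcript, had 1.39 and 0.75 in wild type against −2.87 and −2.86 in endogenous, a difference of 3.93 (SE 0.66, limma adjusted p = 0.0113), and was the only one of the 65 calls kept without wild type library 2. RPS2P46, a ribosomal protein pseudogene, had 0.03 and 0.02 against −3.41 and −3.89. The others below input were RPS4XP22, lnc-NFS1-2, lnc-ZNF169-7, lnc-UAP1L1-4 and a pair of Y_RNA regions. Only lnc-GRM8-2 was past a log2 fold of 3 in wild type, with 3.66 and 3.53 at chr7:126996650-126996768, against 0.84 and 1.37 in endogenous. Its difference was 2.49 (SE 0.65, limma adjusted p = 0.0378).

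**Figure D5:**
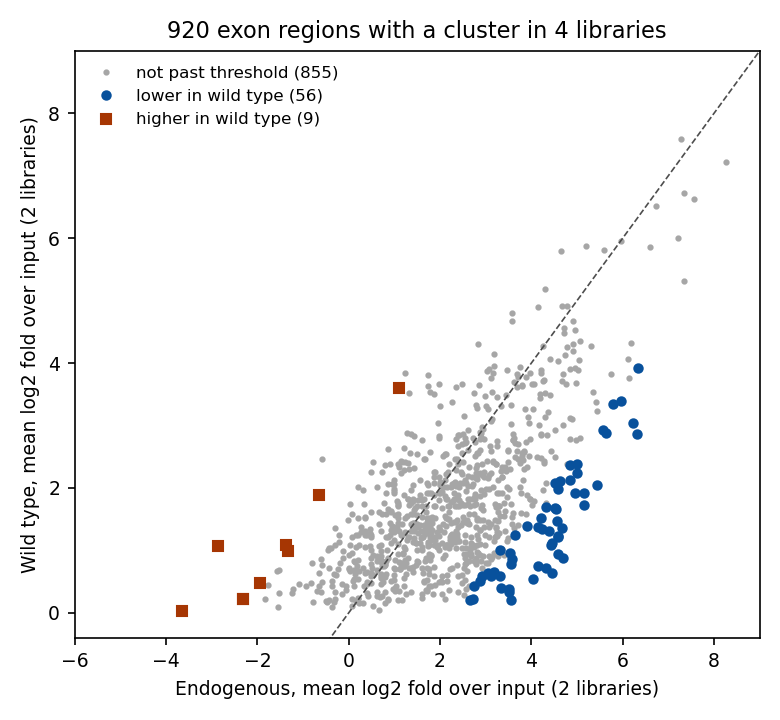
Mean log2 fold over input of the 2 wild type libraries (y axis) against that of the 2 endogenous libraries (x axis) for 920 exon regions with a cluster in all 4. Each point is 1 region, the dashed line is equality, and coloured points passed a limma adjusted p of 0.05; 56 were lower and 9 higher in wild type on the authors' scale.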

How the data were processed

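The 12 eCLIP libraries comprise 6 immunoprecipitations, analysed here, and 6 inputs that enter only through the authors' values. Per the submitters' processing notes, UMI-tools, cutadapt, STAR and SAMtools were used on build hg19; neither their versions nor the program that called peaks is given in the sources used here. For every deposited cluster the authors gave a log2 fold over its size-matched input and a −log10 p, which stops at 400. The deposited browser score was not used for calls. The myc lists hold only log2 folds above 0. Read depth is unknown; libraries held 226962 to 384347 clusters.

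Overlap was at least 1 base on the same strand, and a locus took the cluster with the highest −log10 p in each library. Regions with a cluster in all 4 libraries were tested with limma 3.58.1 (lmFit, eBayes) and Benjamini-Hochberg adjustment over all regions, after the step was tested on simulated data. Library shares were compared by exact two-sided permutation tests. Gene names came from the endogenous annotation, where 98.5% of exon clusters had 1 name after clone, microRNA and lnc- names were dropped if another remained; 1112 of 3836 names matched a RefSeq GRCh38.p14 symbol, and no coordinate of that build is used. Intron settings used gene-model entries only, because 74 of 2785 catalogue intron names spanned over 3 Mb.

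Exon loci and lists were chosen with earlier results of these data known. Named were the genes of the 12 leading loci, the 10 genes with most reproducible loci, up to 8 called regions per direction, up to 6 genes of each list and any gene with a mutant reproducible peak; others are marked. Alternatives covered thresholds, the exon rule, overlap, left-out libraries, scaling, filters and the replicate number as a block. No sequence is printed, since no hg19 genome was used here.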

Additional observations from a re-analysis of the deposited data

How the results depend on the processing

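The mean endogenous share of enriched exon clusters, 5.27%, was 7.31% with the fold threshold lowered to 2, 2.80% with it raised to 4 and 3.92% at a −log10 p of at least 5. Taking any exon base, leaving out further small RNAs and, both chosen after seeing the data, leaving out nuclear mitochondrial copies or exons inside coding genes moved it by less than 1 SD. Wild type exceeded mutant and lay below endogenous in the share of enriched loci under every setting run. Leaving out 1 library gave wild type minus mutant differences of 0.774 to 0.908 percentage points and wild type minus endogenous differences of −1.78 to −1.33. Counts of reproducible peaks stayed within 1.5 times in all settings run.

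The wild type against mutant exon regions past the threshold numbered 3 of 193 with libraries centred, beside 71 higher and 1 lower of all 5481. With a mean −log10 p of at least 3 there were 8 of 34, beside 91 higher and 7 lower of all 358. With missing clusters set at 0 there were 216 of 2663, beside 10860 higher and 903 lower of all 169063. With all 6 libraries fitted there were 6 of 128, beside 119 higher and 0 lower of all 1997. Leaving out 1 library changed the count. For wild type against endogenous the 65 calls became 26 centred, 81 (of 273) with a mean −log10 p of at least 3, 0 with missing clusters at 0 (at an unadjusted p under 0.05, 719 lower and 294 higher of 4894, beside 30728 and 16555 of all 194478) and 22 (of 128) with all 6 libraries, and leaving out 1 library gave 1 to 35. Same-numbered libraries did not deviate together (r = −0.04 and 0.01, across regions), which cannot show whether they were prepared together. With the replicate block the counts were 1 and 126. Over all regions that block gave 41 higher and 1 lower against mutant, and 622 higher and 3485 lower against endogenous. Depth is unknown, and many low folds repeat a few values, so small differences between low clusters cannot be resolved.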
